A study of Mus musculus with 13 samples.

Results

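The cytosolic ribosomal protein genes were the rows of the deposited count table that were marked protein-coding and carried an Rpl or Rps symbol with a number, together with Rpsa, Rplp0, Rplp1 and Rplp2, and without the Rps6k kinases. This rule took 90 of 21084 genes. Of these, 77 encoded the proteins of the ribosome itself, 46 in the large and 31 in the small subunit, and are called core members below. The other 13 were paralogs and retrocopies, like-named proteins, and 5 rows whose symbol names a pseudogene although the table marks them protein-coding. Bulk RNA had been sequenced from sorted gamma delta intraepithelial lymphocytes of the small intestine, and all mice were wild-type. All mice had first received 200 µg of antibody intraperitoneally, either Armenian hamster IgG as the control or UC7-13D5, which binds the gamma delta T cell receptor, at 48 and 24 hours before isolation. They then received PBS or 1 µg of murine IFNa, a type I interferon, intravenously 5 hours before isolation. These times are those of the treatment protocol, and the series' design text instead has the antibody at 48 or 24 hours before the injection of PBS or IFNa, so that the schedule is not settled. The 4 groups that result held 13 libraries, 4 in IgG-IFNa and 3 in each of IgG-PBS, UC7-PBS and UC7-IFNa. The age of the mice and the number of mice behind a library were not given in the sources used here, so that p-values measure the spread between libraries labelled as biological replicates.

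A ribosome joins a small subunit, which reads the mRNA, and a large subunit, which forms the peptide bond, and nearly every ribosomal protein is needed in a single copy per particle. Cells therefore make the proteins in balance, and their mRNAs are among the most abundant of a cell. Most of these mRNAs begin with a cytosine followed by a run of pyrimidines, the 5′ terminal oligopyrimidine (TOP) motif, through which mTORC1 and the La-related protein Larp1 control how long they persist and how often they are translated. Type I interferon acts on translation by another route, through induced proteins such as the kinase PKR (Eif2ak2) and the IFIT proteins, which act on initiation and on cap-bearing RNA.

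The TOP run can be read from the sequence around the annotated starts. The windows shown, taken from RefSeq, hold the 40 bases before the start and 20 from it on, in the direction of transcription. They are those of members to which the results below return and, at the end, of the like-named Rpl7l1 and Rps19bp1. Capitals mark a run of at least 5 pyrimidines that begins with C within 5 bases of the start.
Rps15a: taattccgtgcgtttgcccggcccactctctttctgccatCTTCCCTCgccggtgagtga
Rps18: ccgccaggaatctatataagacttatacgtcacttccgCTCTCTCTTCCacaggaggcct
Rps6: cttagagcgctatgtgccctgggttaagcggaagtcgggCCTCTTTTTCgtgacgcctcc
Rps27: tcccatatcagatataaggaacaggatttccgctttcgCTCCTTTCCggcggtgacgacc
Rpl12: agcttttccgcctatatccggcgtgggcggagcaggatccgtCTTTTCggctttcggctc
Rpl7l1: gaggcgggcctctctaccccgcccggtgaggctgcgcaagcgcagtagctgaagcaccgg
Rps19bp1: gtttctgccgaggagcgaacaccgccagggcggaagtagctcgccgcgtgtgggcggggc
In GRCm38.p6 the windows are chr7:118116128-118116187 for Rps15a (minus strand), chr17:33955646-33955705 for Rps18 (minus strand), chr4:86857348-86857407 for Rps6 (minus strand), chr3:90213629-90213688 for Rps27 (minus strand), chr2:32961672-32961731 for Rpl12 (plus strand), chr17:46782637-46782696 for Rpl7l1 (minus strand) and chr15:80264287-80264346 for Rps19bp1 (minus strand). Such a run lay at 24 of 67 annotated starts of 57 core members (35.8%), against 16.1% of all 32851 starts in the RefSeq table. On the other strand the same run lay at 14.9% of the core starts and 19.2% of all starts. Promoter entries were found for 65 of the 90 members, and an annotated start can lie some bases from the one used in these cells. In Rps6, Rps18 and Rps27 the run spans the annotated start, and in Rps15a it begins at the start. In Rpl12 it begins 2 bases after it, and the windows of Rpl7l1 and Rps19bp1 hold none there. Of the 9 starts of 8 members outside the core, 4 held one (44.4%).

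The libraries held 19867201 to 26895876 estimated counts, the fewest in UC7-IFNa library 2. That library stood apart from the other 12. Rn18s, the small subunit's ribosomal RNA, took 1.14% of its counts and 0.0866 to 0.333% of the others, and its TMM scaling factor, which enters its CPM, was 0.867, against 0.987 to 1.05. Most results that rest on it are therefore given with and without it, among them the members' medians in each comparison that uses it. Transcripts of Y-linked genes summed to at most 0.310 CPM (counts scaled to a common library total) in IgG-PBS and 132 to 329 CPM in the 6 UC7 libraries, while Xist stood at 265 to 345 CPM in IgG-PBS and at most 1.08 CPM in the UC7 libraries. IgG-IFNa libraries 1 and 2 resembled IgG-PBS, and libraries 3 and 4 held both kinds of transcript. Antibody and sex of the mice therefore cannot be told apart with PBS. All 8 listed markers of gamma delta intraepithelial lymphocytes were present, with sums of 40124 to 70034 CPM, the highest in UC7-IFNa library 2, against at most 57972 CPM in the other 3 groups. The 10 markers of crypt and secretory epithelium summed to 70.5 to 466 CPM in IgG-PBS, 490.0 to 1029 in IgG-IFNa, 752 to 1777 in UC7-PBS and 301 to 1042 in UC7-IFNa. Sums were also highest in UC7-IFNa library 2 for absorptive enterocytes, at 348 CPM, alpha beta T cells, at 2682 CPM, B and plasma cells, at 570.2 CPM, and myeloid cells, at 514 CPM, against at most 262, 2119.9, 330.5 and 409 CPM in the other 3 groups, and for stroma they were 12.1 to 35.4 CPM. The part of sex and of RNA from other cells in the results below was not tested beyond the values given with them.

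Ribosomal protein genes have many processed pseudogenes, copies of the spliced mRNA scattered through the genome, and the counts were split between the gene and these copies. Only 3 core members, Rpl41 and Rpl8 among them, had no row matched to them by sequence (at least 90% identity over at least 50% of the coding length). The other 74 shared 566 rows, 559 of them marked as pseudogenes. A member and its matched rows are called its family below. The median core member held 49.7% of its family's counts in its own row. In 8 members the own row held under 10%, and in 10 it held over 95%. For Rpl5, which with Rpl11 and the smallest ribosomal RNA forms a particle that binds Mdm2, the share was 2.37%, and the row of Gm15500 held 529 CPM on average against 12.9 for Rpl5. For Rpl3, a protein next to the peptidyl transferase centre, the own row held 19.4%, and for Rps6, the protein that S6 kinases phosphorylate, 16.5%. Rps27 held 3.32%, and its retrocopy Rps27rt, itself a member by the rule, carried 526 CPM.

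**Figure D1:**
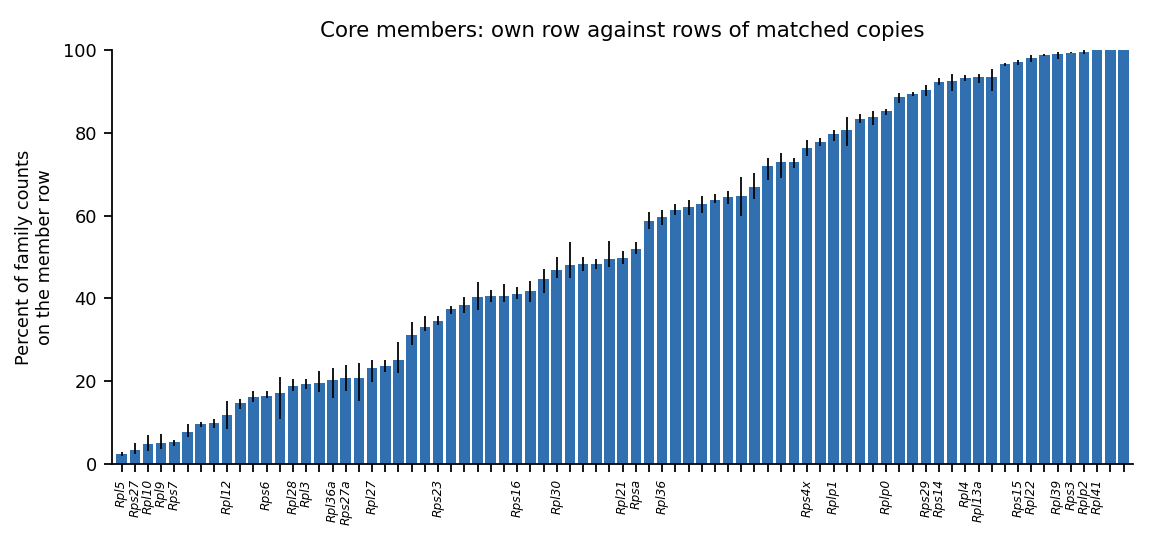
Share of each family's estimated counts that lay in the row of the core member itself. Bars are means over the 13 libraries in percent, and lines run from the lowest to the highest library, with labels for part of the members. The bars climb from 2.37% for Rpl5 to 100% for the members without a matched row.

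The sequences show how little there is to tell gene and copy apart. Bases 1 to 90 of the coding sequence, from GENCODE M21 transcripts, are given for Rpl12 and Gm10275, the copy with most counts in its family, and for Rpl3 and Rpl3-ps1. Capitals mark a base that differs.
Rpl12: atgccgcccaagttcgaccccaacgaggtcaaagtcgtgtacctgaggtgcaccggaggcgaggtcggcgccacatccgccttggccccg
Gm10275: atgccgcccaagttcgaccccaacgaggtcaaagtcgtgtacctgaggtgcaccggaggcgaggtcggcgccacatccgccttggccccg
Rpl3: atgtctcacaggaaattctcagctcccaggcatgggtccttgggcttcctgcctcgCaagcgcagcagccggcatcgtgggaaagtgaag
Rpl3-ps1: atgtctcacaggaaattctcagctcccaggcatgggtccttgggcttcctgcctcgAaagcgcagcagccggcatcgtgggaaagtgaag
Over the whole coding sequence, 0 of 495 aligned bases differed between Rpl12 and Gm10275 and 2 of 1209 between Rpl3 and Rpl3-ps1. None differed over 747 bases of Rps6 and Rps6-ps4, 891 of Rpl5 and Gm15500, 642 of Rpl10 and Rpl10-ps3, 252 of Rps27 and Rps27rt, 396 of Rps12 and Rps12-ps3 or 633 of Rpl13 and Gm12918. A read from these stretches cannot be assigned to either row by its sequence, and 93.2% of the members' values in the table were not whole numbers, against 38.0% of all values. The level of a single row is therefore uncertain for these genes. The summed family is given beside it for part of the results, and elsewhere the values are those of the row alone.

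Levels of different genes were compared per kilobase of coding length, in the control group IgG-PBS (mean ± SD, n = 3). By row, Rpl41, which encodes the shortest protein of the ribosome, was highest at 4093 ± 308 CPM per kilobase. Also among the highest were the retrocopy Rps27rt at 1907 ± 175, Rps14 at 1619 ± 245 and Rps3, a protein at the mRNA entry channel, at 1249 ± 160.3. The ranges of mean ± SD overlapped between Rps27rt and Rps14 and between Rps14 and Rps3. At the other end stood Rps23rg1 at 0.666 ± 0.125, Rpl5 at 15.3 ± 1.08, Rpl28 at 23.8 ± 2.53, Rpl36a at 30.4 ± 4.68 and Rps7 at 31.7 ± 2.42. Of these rows, those of Rpl5, Rpl28, Rpl36a and Rps7 held 2.37, 18.7, 20.3 and 5.19% of their families' counts. By family, Rpl5 was not among the lowest, and the lowest were Rps21 at 75.4, Rpl35 at 112, Rpl28 at 129 and Rpl38 at 132 CPM per kilobase. Among the highest families were Rpl41 at 4094, Rps27 at 1985, Rps14 at 1749 and Rps18 at 1692. On this scale the span from the highest to the lowest core member was 268-fold by row and 54.3-fold by family. The counts per gene were not limited to coding bases, so the scale raises genes with short coding sequences, such as Rpl41 with 75 bases. Unscaled, the mean in IgG-PBS was 307 CPM for Rpl41 and 911 CPM for Rps3.

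Together the 90 members took 1.52, 1.66 and 1.75% of the counts in the 3 libraries of IgG-PBS and 1.46, 1.20, 1.69 and 1.35% in the 4 of IgG-IFNa, all given in replicate order. After UC7-13D5 they took 1.53, 1.79 and 1.64% with PBS and 1.17, 2.45 and 1.28% with IFNa. UC7-IFNa held both the lowest and the highest share, in libraries 1 and 2. After IgG the mean was 1.65 ± 0.116% with PBS (SD, n = 3) and 1.42 ± 0.207% with IFNa (SD, n = 4), and after UC7-13D5 1.65 ± 0.128% with PBS and 1.63 ± 0.713% with IFNa (SD, n = 3 each). Without library 2 the UC7-IFNa mean was 1.22 ± 0.0800% (SD, n = 2), and both remaining libraries lay under all 3 UC7-PBS libraries. The matched pseudogene rows added 0.735 to 1.47% and were ordered alike, lowest in UC7-IFNa library 1 and highest in library 2. In bulk samples, fewer cells of a type and less of the RNA per cell cannot be told apart.

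**Figure D2:**
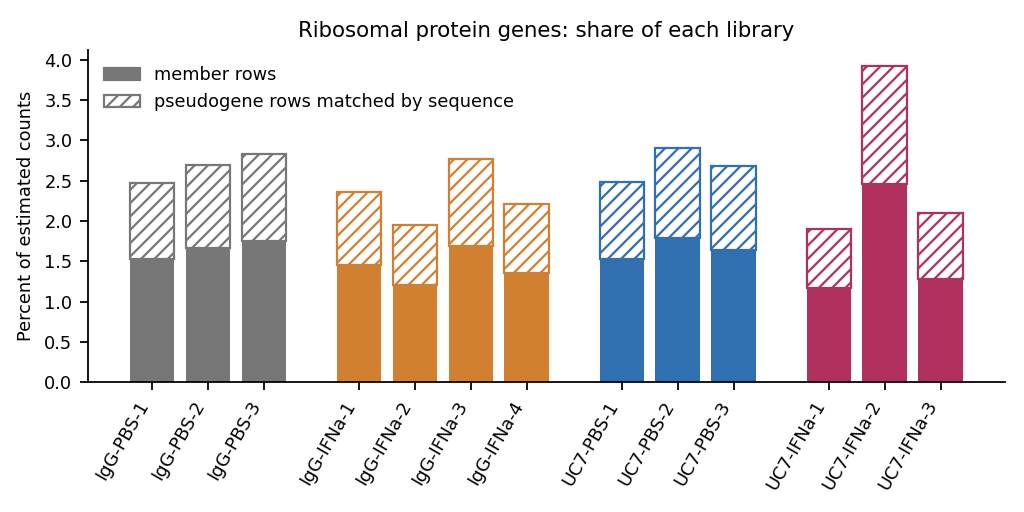
Percent of each library's estimated counts on the 90 member rows (filled) and on pseudogene rows matched to them by sequence (hatched), 1 bar per library, coloured by group. UC7-IFNa library 2 reaches 2.45% on member rows, and the other 12 libraries lie between 1.17 and 1.79%.

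The members moved together from library to library. With each of the 89 members that passed the count filter set to its own mean over the 13 libraries, the median member stood at 0.90 on the log2 CPM scale in UC7-IFNa library 2, where 80 of 89 members had their highest level, against 26.3% of all tested genes. It stood at -0.43 and -0.23 in UC7-IFNa libraries 1 and 3, where 2 and 4 members were above their own mean. Among the IgG-IFNa libraries it was -0.12, -0.38, 0.18 and -0.13, so that library 2 lay lowest and library 3, where 84 members were above their mean, highest. The 3 IgG-PBS libraries were at -0.092, 0.039 and 0.067, and the 3 UC7-PBS libraries at -0.064, 0.21 and 0.045. Rplp0, the scaffold of the stalk that recruits translation factors to the large subunit (ENSMUSG00000067274, mm39 chromosome 5, 115697526 to 115701787), gives the pattern in 1 gene. It stood at 684, 755 and 801 CPM in IgG-PBS, 655, 646, 810.3 and 642 CPM in IgG-IFNa, 764, 754 and 691 CPM in UC7-PBS and 576, 1373 and 689 CPM in UC7-IFNa. Its highest and lowest values were both in UC7-IFNa, in libraries 2 and 1, and its other groups overlapped.

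**Figure D3:**
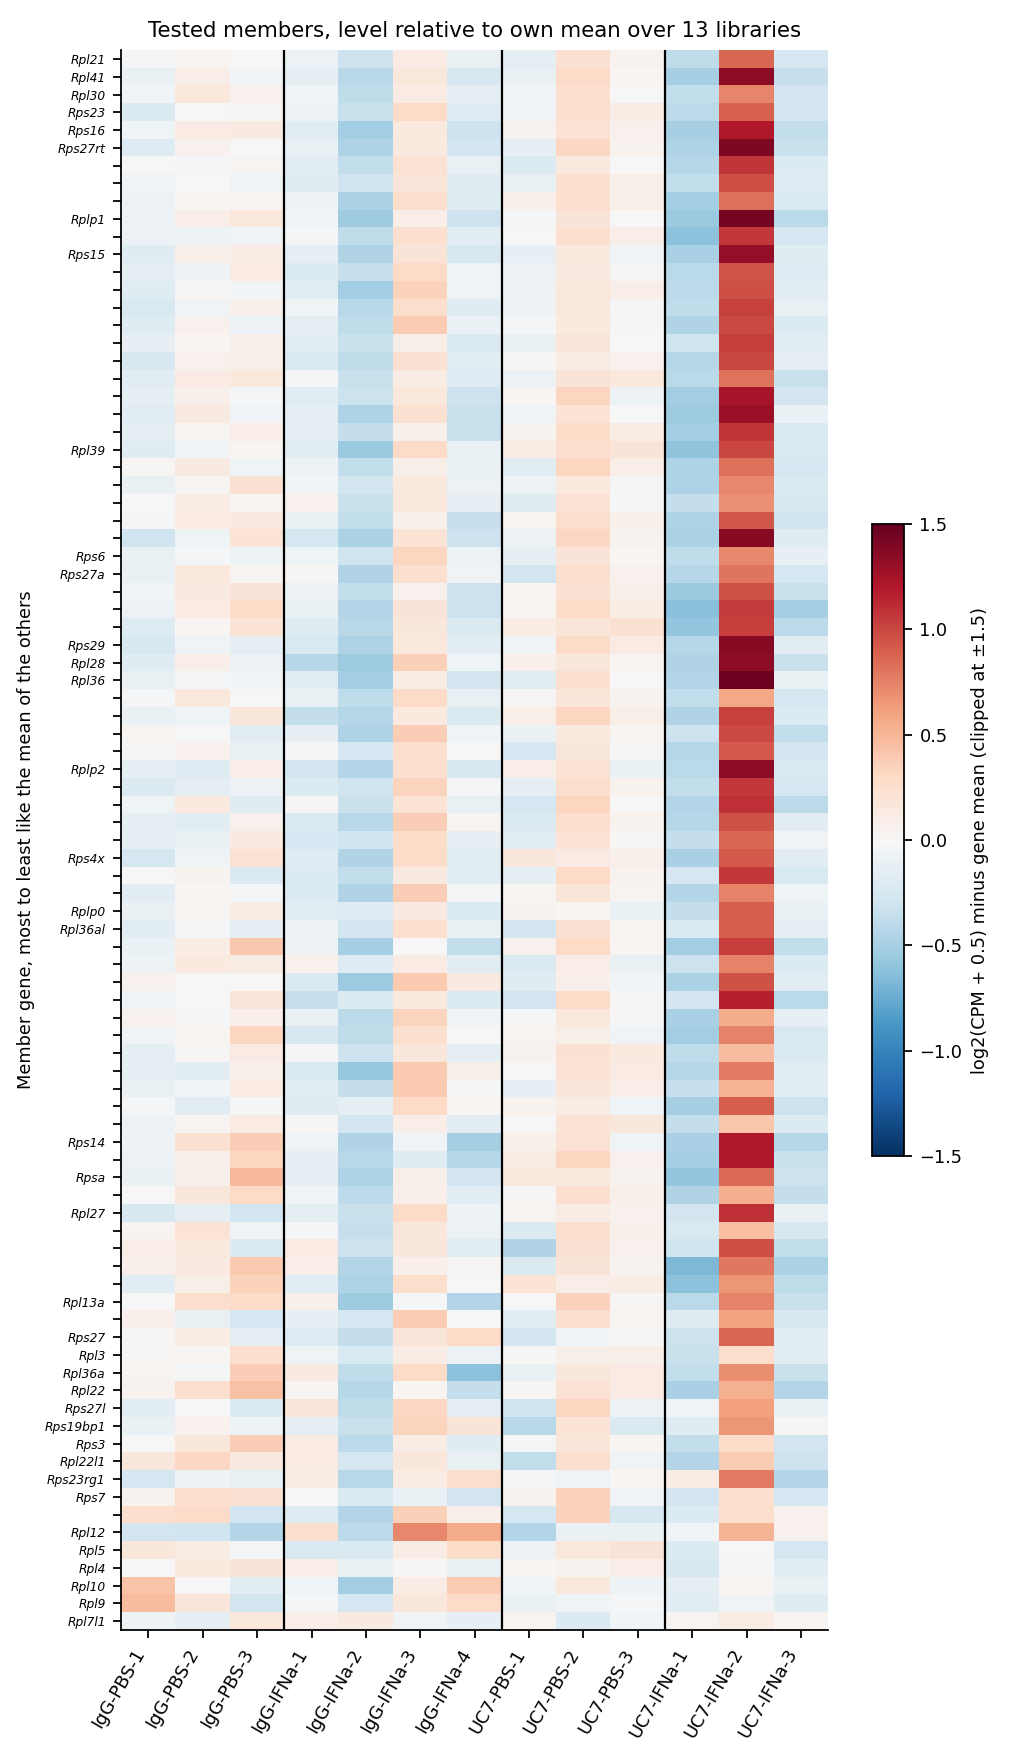
Heat map of the 89 tested members (rows, ordered from most to least like the mean of the others) over the 13 libraries (columns, black lines between groups). Labels are given to part of the members. Colour is log2(CPM + 0.5) minus the gene's mean, red above and blue below, clipped at 1.5. Nearly the whole UC7-IFNa library 2 column is red, and the last rows, such as Rpl7l1, Rpl9 and Rpl10, do not follow it.

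The likeness of each member to the mean of all other members was described by Pearson's r over the 13 libraries, points that share their library, depth and scaling. The median r was 0.950, and 0.883 over the 12 libraries without UC7-IFNa library 2. Most like the rest over 13 libraries were Rpl21 at 0.99, Rpl41 at 0.98, Rpl30 at 0.98, Rps23 at 0.98 and Rps16 at 0.98. Least like it were Rpl7l1 at -0.046, Rpl9 at 0.13, Rpl10 at 0.29, Rpl4 at 0.37 and Rpl5 at 0.38. Summing the copies changed this for the members with split counts. By family, r was 0.90 for Rpl9, 0.90 for Rpl10, which joins the large subunit late in its maturation, and 0.85 for Rpl5. It stayed at 0.41 for Rpl4, whose own row held 93.2% of its family. Without UC7-IFNa library 2, however, r was 0.75 by row and 0.77 by family for Rpl4, and 0.66 and 0.96 for Rpl5. Over those 12 libraries the rows least like the rest were Rpl7l1 at -0.52, Rpl12 at 0.17 and Rpl9 at 0.32. Rpl4, a protein of the exit tunnel wall, stood at 727, 803 and 829.5 CPM in IgG-PBS, 775, 669, 729 and 671 CPM in IgG-IFNa, 736, 749.7 and 775 CPM in UC7-PBS and 614, 706 and 648 CPM in UC7-IFNa. Its level in UC7-IFNa library 2 lay within the range of the other libraries, unlike that of Rplp0.

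IFNa against PBS after IgG asked what 5 hours of interferon did to the ribosomal protein mRNAs of cells from mice given the control antibody. Ifit3, an interferon-induced gene that served as the check of the treatment, rose by 3.37 ± 0.33 on the log2 scale (SE, adjusted p = 0.00014, edgeR). None of the 89 tested members passed the threshold, adjusted p under 0.05 over all 15835 tested genes, of which 0.827% did. The median log2 fold change was -0.10 over the members and -0.012 over all tested genes, and 68 of 89 members had a value below 0, against 51.6% of all tested genes. The large subunit's 46 core members had a median of -0.092 and the small subunit's 31 one of -0.13. At an unadjusted p under 0.05, 1 member counted, Rpl12, against 10.9% of all tested genes in edgeR. DESeq2 called 0 of 90 members. It also had 1 at an unadjusted p under 0.05, a count not set here against its share over all tested genes.

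The libraries of IgG-IFNa did not overlap those of IgG-PBS in 3 members, all lower, which is fewer than the 6.91% of all tested genes would give in 89. Rpl22 and Rps7 were among them. Rpl22 (ENSMUSG00000028936, mm39 chromosome 4, 152410199 to 152418529), whose loss is known to stop the development of alpha beta but not gamma delta T cells, stood at 59.3, 68.5 and 77.8 CPM in IgG-PBS, 58.8, 42.5, 58.2 and 44.4 CPM in IgG-IFNa, 57.8, 66.9 and 62.6 CPM in UC7-PBS and 40.9, 83.4 and 42.2 CPM in UC7-IFNa. Its log2 fold change was -0.43 ± 0.22 (SE, adjusted p = 0.53, edgeR), and its own row held 98.1% of its family's counts. For Rps7 the value was -0.34 ± 0.18 (SE, adjusted p = 0.53, edgeR), from a row that held 5.19% of its family. UC7-IFNa library 2 belongs to neither group but bears on the estimated spread. With it left out, the log2 fold change was -0.43 for Rpl22 and -0.34 for Rps7, and the adjusted p in edgeR was 0.12 for Rpl22 and 0.26 for Rps7. In that fit 9 of 90 members were lower with an unadjusted p under 0.05, against 7.39% of all tested genes, and none passed the threshold, which 2.65% of all tested genes passed.

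With 1 library left out at a time, the members' median in this comparison stayed below 0, from -0.21 to -0.013. Its size depended on the libraries used, and its sign turned with a covariate. Without IgG-IFNa libraries 3 and 4, the libraries that held Y-linked transcripts, the median was -0.26. In that fit 86 of 90 values lay below 0, against 51.6% of all tested genes in the fit of all 13 libraries. With the share of Y-linked transcripts as a covariate it turned to 0.044, and to -0.22 when UC7-IFNa library 2 was also left out. No member was called in any of these fits. Mitochondrial transcripts took 0.866, 0.946 and 1.73% of the counts in IgG-PBS and 0.676, 0.582, 0.801 and 0.612% in IgG-IFNa, with no overlap, and Rn18s 0.139, 0.182 and 0.333% and 0.107, 0.0906, 0.196 and 0.0938%, with overlap. Their part in the members' values was not tested.

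Rpl12, a protein at the base of the stalk (ENSMUSG00000038900, mm39 chromosome 2, 32851571 to 32855358), was the member with the smallest p and had a value of the other sign. Its row stood at 30.4, 30.1 and 27.1 CPM in IgG-PBS, 43.7, 28.1, 61.4 and 54.5 CPM in IgG-IFNa, 27.1, 34.6 and 34.6 CPM in UC7-PBS and 36.1, 53.1 and 38.7 CPM in UC7-IFNa. IgG-IFNa libraries 1, 3 and 4 lay above all 3 IgG-PBS libraries and library 2 within their range. The log2 fold change was 0.68 ± 0.23 (SE, adjusted p = 0.23, edgeR), and without IgG-IFNa library 2 the adjusted p was 0.056, the lowest of any member in any fit. The row of Gm10275, which has the same coding sequence, stood at 223, 282 and 291 CPM in IgG-PBS, 281, 205, 376 and 303 CPM in IgG-IFNa, 249.8, 307 and 272 CPM in UC7-PBS and 216, 483 and 235 CPM in UC7-IFNa. With all 7 matched rows added, the log2 fold change was 0.19 ± 0.25 (SE, adjusted p = 0.86, edgeR). The own row held 9.88 ± 1.73% of the family (SD, n = 3) in IgG-PBS, 13.5 ± 1.33% in IgG-IFNa (SD, n = 4), 10.2 ± 0.777% in UC7-PBS (SD, n = 3) and 12.6 ± 2.44% in UC7-IFNa (SD, n = 3). With all copies matched by sequence added to the core members, 0 of 77 families had an unadjusted p under 0.05 in this comparison, against 11.2% of all tested genes, and the median was -0.12.

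**Figure D4:**
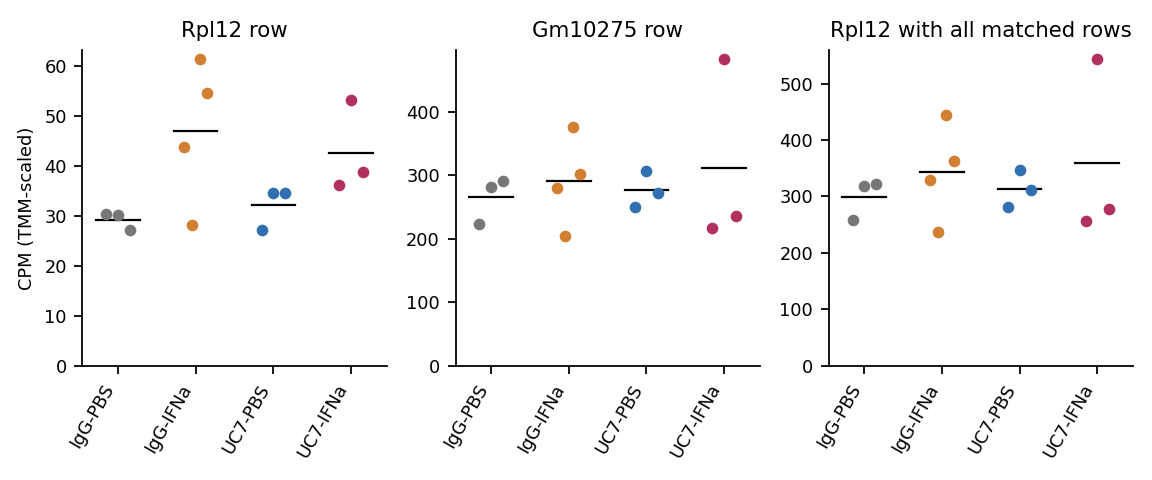
TMM-scaled CPM of the Rpl12 row, the row of its identical copy Gm10275 and the whole family in the 4 groups. Points are libraries and lines are group means. The Rpl12 row has a mean of 29.2 CPM in IgG-PBS and 46.9 CPM in IgG-IFNa, and the family 299.7 and 343 CPM with overlapping libraries.

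The same question was put to cells from mice given the receptor antibody, by IFNa against PBS after UC7-13D5. Ifit3 rose by 4.84 ± 0.36 on the log2 scale (SE, adjusted p = 7.1e-06, edgeR). No member passed the threshold, which was passed by 0.360% of all tested genes, and neither edgeR nor DESeq2 gave any member an unadjusted p under 0.05, which edgeR gave 7.59% of all tested genes. What the members did depended on UC7-IFNa library 2. With all 13 libraries their median log2 fold change was 0.13, and 71 of 89 values were above 0, against 52.7% of all tested genes. Without that library it was -0.38, and 86 of 90 values were below 0, against 52.6% of all tested genes. Rplp0 is an example of the turn, with 0.26 ± 0.24 and -0.23 ± 0.14 (SE).

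Without library 2, 45 of 90 members were lower with an unadjusted p under 0.05, against 6.04% of all tested genes, and 70 of 89 had both UC7-IFNa libraries under all 3 UC7-PBS libraries, against 17.3%. None passed the adjusted threshold in edgeR, which was passed by 0.678% of all tested genes. The make-up of the libraries moved with the members. Mitochondrial transcripts took 1.47, 1.24 and 1.07% of the counts in UC7-PBS and 0.611, 1.23 and 0.618% in UC7-IFNa, and Rn18s 0.234, 0.271 and 0.162% and 0.0866, 1.14 and 0.0993%, so that UC7-IFNa libraries 1 and 3 lay under all UC7-PBS libraries in both. With these transcripts left out of the total, the members took 1.56, 1.81 and 1.66% in UC7-PBS and 1.17, 2.51 and 1.29% in UC7-IFNa. The part of RNA composition in the members' values was not tested further. The small subunit's core members had a median of -0.42 and the large subunit's -0.37. With the copies added, the median over the 77 families was -0.42. All 77 values were below 0, against 52.6% of all tested genes in the fit by row. Of the families, 53 had an unadjusted p under 0.05, against 5.90% of all tested genes. The smallest p belonged to Rps18-ps5, the row of a copy of Rps18, at -0.72 ± 0.17 (SE, adjusted p = 0.079, edgeR). Rps15a followed, a small-subunit protein whose start is shown above (ENSMUSG00000008683, mm39 chromosome 7, 117703595 to 117715412). It stood at 104, 121 and 136 CPM in IgG-PBS, 105, 89.2, 134 and 102 CPM in IgG-IFNa, 128, 135 and 139.6 CPM in UC7-PBS and 79.4, 244 and 90.7 CPM in UC7-IFNa. UC7-IFNa libraries 1 and 3 were the lowest and the third lowest of the 13 and library 2 the highest. Without library 2 the log2 fold change was -0.67 ± 0.16 (SE, adjusted p = 0.083, edgeR), and with it 0.037 ± 0.31 (SE, adjusted p = 0.99).

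Rps18, a protein of the head of the small subunit (ENSMUSG00000008668, mm39 chromosome 17, 34170973 to 34174976), stood at 337, 381 and 396 CPM in IgG-PBS, 326, 269, 364 and 281 CPM in IgG-IFNa, 353, 405 and 369 CPM in UC7-PBS and 236, 674 and 275 CPM in UC7-IFNa. As with Rps15a, libraries 1 and 3 of UC7-IFNa lay under all UC7-PBS libraries and library 2 over them. Without library 2 its log2 fold change was -0.56 ± 0.15 (SE, adjusted p = 0.12, edgeR). The value was -0.53 ± 0.15 for Rpl15 and -0.59 ± 0.17 for Rpl22 (SE, adjusted p = 0.15 and 0.15, edgeR). Both also had a negative value after IgG. The row of Rps6 differed less, at -0.28 ± 0.16 (SE, adjusted p = 0.51, edgeR), from levels of 87.6, 93.4 and 89.7 CPM in IgG-PBS, 90.1, 76.8, 118 and 89.8 CPM in IgG-IFNa, 85.7, 108 and 96.0 CPM in UC7-PBS and 72.5, 156 and 86.8 CPM in UC7-IFNa. That row held a minor part of its family's counts, and the copy Rps6-ps4 has the same coding sequence, so that the value of the gene is uncertain. The 3 members with the smallest p over all 13 libraries were Rpl12 at 0.41 ± 0.24, Rpl4 at -0.20 ± 0.13 and Rpl36 at 0.53 ± 0.35 (SE, adjusted p = 0.73, 0.76 and 0.77, edgeR). Over all 13 libraries the groups did not overlap in Rpl12 and Rpl7l1, higher, and in Rpl4, lower, against 5.90% and 6.09% of all tested genes. With 2 UC7-IFNa libraries left, the spread of that group rests on 2 values. The highest Rn18s share, the lowest total and the highest member level thus fell in the same library, and the part of the first 2 in the third was not tested.

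**Figure D5:**
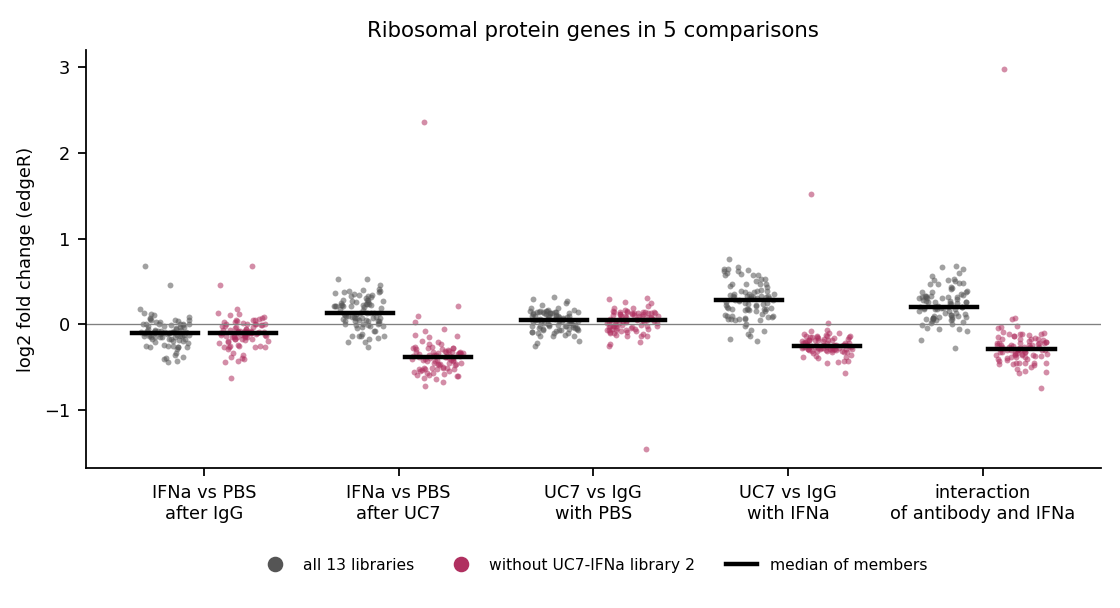
Log2 fold changes of the tested members in the 5 comparisons, from edgeR, with all 13 libraries (grey) and without UC7-IFNa library 2 (red). Each point is a member and the black bar is the median. The median turns from 0.13 to -0.38 for IFNa after UC7-13D5, from 0.28 to -0.25 for UC7-13D5 with IFNa, and from 0.21 to -0.28 for the interaction. The isolated red points are Rpl39l, which is near 0 CPM.

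UC7-13D5 against IgG with PBS asked what the receptor antibody did on its own, in groups that also differed in Xist and Y-linked transcripts. No member passed the threshold, which was passed by 0.00632% of all tested genes, and neither edgeR nor DESeq2 gave a member an unadjusted p under 0.05, which edgeR gave 5.00% of all tested genes. The median log2 fold change was 0.051, against -0.010 over all tested genes, with 56 of 89 values above 0, against 48.3% of all tested genes. With the share of Y-linked transcripts as a covariate the median was 0.35, and no member was called. That fit cannot separate antibody and sex here, because IgG-PBS and UC7-PBS do not overlap in this share. The slope of the covariate comes from the IFNa groups, among them UC7-IFNa library 2 with 132 CPM of Y-linked transcripts. The 3 smallest p belonged to Rpl22l1 at -0.25 ± 0.21, Rpl9 at -0.22 ± 0.19 and Rpl27 at 0.30 ± 0.28 (SE, adjusted p = 0.9999 in each, edgeR). The libraries did not overlap in 6 of 89 members, all higher after UC7-13D5, a share near the 6.60% of all tested genes higher without overlap. They were Rpl17, Rpl23, Rpl27, Rpl39, Rps23rg1 and Rps26. Rps23rg1 was near 0, at no more than 0.321 CPM in IgG-PBS and no less than 0.327 CPM in UC7-PBS. Rpl27 stood at 30.6, 32.5 and 29.6 CPM in IgG-PBS, 32.5, 28.6, 44.2 and 34.3 CPM in IgG-IFNa, 37.1, 39.2 and 37.8 CPM in UC7-PBS and 29.7, 78.0 and 33.8 CPM in UC7-IFNa. All 3 UC7-PBS libraries lay above all 3 IgG-PBS libraries, and IgG-IFNa library 3 above both groups. For Rpl9 the family had a log2 fold change of 0.055 ± 0.22 (SE), the other direction from its row.

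UC7-13D5 against IgG with IFNa compared groups that also differed in Xist, so that antibody and sex were not separated. The members' median was 0.28 with all 13 libraries, with 82 of 89 values above 0, against 51.5% of all tested genes. Without UC7-IFNa library 2 the median was -0.25, and 88 of 90 values were below 0, against 53.3%. No member passed the threshold in either fit, which 0.0758% of all tested genes passed with all libraries and 0.0123% without library 2. DESeq2 gave 2 members an unadjusted p under 0.05, a count not set here against its share over all tested genes. In edgeR with all libraries, Rpl36, a large-subunit protein, had the only such p, at 0.76 ± 0.32 (SE, adjusted p = 0.65), against 7.19% of all tested genes. Its levels were 108, 115 and 113 CPM in IgG-PBS, 104, 82.0, 126 and 96.2 CPM in IgG-IFNa, 104, 139 and 117 CPM in UC7-PBS and 85.7, 324 and 109 CPM in UC7-IFNa, so that the value rests on library 2, and without it the log2 fold change was -0.078 ± 0.16 (SE, adjusted p = 0.98, edgeR). Rps29, at 0.64 ± 0.31 with all libraries and -0.16 ± 0.16 without library 2 (SE), turned in the same way. Without library 2, 9 of 90 members were lower with an unadjusted p under 0.05, against 2.90% of all tested genes.

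The interaction term, the difference between the IFNa effects after IgG and after UC7-13D5, asks whether the response differed between the antibody arms. These arms also differed in Xist and Y-linked transcripts, so that the term does not separate antibody from sex. No member passed the threshold with or without UC7-IFNa library 2 in edgeR, nor did any other tested gene (0% called in both fits), and DESeq2 called 2 genes, neither a member. The median over the members was 0.21 with all libraries, with 81 of 89 values above 0, against 52.0% of all tested genes. Then 0 members had an unadjusted p under 0.05 in edgeR or DESeq2, against 3.17% of all tested genes in edgeR. Without library 2 the median was -0.28, 87 of 90 values were below 0, against 50.9%, and 5 had a negative value with an unadjusted p under 0.05, against 3.01% of all tested genes. The smallest p with all libraries belonged to Rps14 at 0.67 ± 0.46, Rpl36 at 0.66 ± 0.48 and Rps15 at 0.60 ± 0.46 (SE, adjusted p = 0.9999 in each, edgeR). Without library 2 they stood at -0.11 ± 0.22, -0.17 ± 0.22 and -0.18 ± 0.22 (SE). The 2 IFNa comparisons share no library. With the share of Y-linked transcripts as a covariate and all libraries the interaction's median was 0.0049, and with the covariate and library 2 left out it was -0.17. Without the covariate and library 2 the members' medians were -0.10 after IgG and -0.38 after UC7-13D5.

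Some members are known for roles besides the ribosome. Rpl13a, which in other cells forms part of a complex that silences translation after interferon gamma, stood at 447, 532 and 543 CPM in IgG-PBS, 469, 307, 437 and 327 CPM in IgG-IFNa, 441, 563 and 449 CPM in UC7-PBS and 334, 745 and 351 CPM in UC7-IFNa. IgG-IFNa libraries 2 and 4 and UC7-IFNa libraries 1 and 3 were its 4 lowest. Its log2 fold change with IFNa was -0.40 ± 0.25 after IgG (SE, adjusted p = 0.62, edgeR), and after UC7-13D5 -0.023 ± 0.26 with and -0.51 ± 0.18 without library 2. Rpsa, also known as a laminin receptor, had -0.36 ± 0.27 after IgG and -0.57 ± 0.18 after UC7-13D5 without library 2 (SE, adjusted p = 0.71 and 0.20, edgeR). The acidic stalk proteins Rplp1 and Rplp2 had 0.40 ± 0.38 and 0.39 ± 0.34 after UC7-13D5 with all libraries and -0.55 ± 0.17 and -0.41 ± 0.18 without library 2 (SE). Rps27a, made as a fusion with ubiquitin, had -0.077 ± 0.25 after IgG and -0.38 ± 0.19 after UC7-13D5 without library 2 (SE, adjusted p = 0.97 and 0.44, edgeR), and Rpl3 had -0.17 ± 0.15 and -0.32 ± 0.13 (SE, adjusted p = 0.79 and 0.36).

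The 4 members on the X chromosome were read beside the Xist levels given above. Rps4x (ENSMUSG00000031320, mm39 chromosome X, 101228547 to 101233001), of the small subunit, stood at 214, 245 and 297 CPM in IgG-PBS, 224, 187, 310.2 and 229 CPM in IgG-IFNa, 288, 279 and 271 CPM in UC7-PBS and 182, 487 and 229.7 CPM in UC7-IFNa. The IgG-PBS libraries reached from below to above all 3 UC7-PBS libraries. UC7-13D5 against IgG with PBS gave 0.15 ± 0.28 for Rps4x, -0.10 ± 0.22 for Rpl10, 0.25 ± 0.31 for Rpl39 and -0.074 ± 0.31 for Rpl36a (SE, adjusted p = 0.9999 in each, edgeR). By row their values lay on both sides of 0. The negative ones were those of Rpl10 and Rpl36a, whose rows held a minor part of the counts of gene and copies. Rpl10 had means of 24.0 CPM in IgG-PBS and 22.4 CPM in UC7-PBS, and Rpl10-ps3, with the same coding sequence, 469 and 479 CPM. The sign is therefore uncertain for both genes. Rpl39, an exit tunnel protein at 59.2 ± 4.54 CPM in IgG-PBS and 70.6 ± 3.66 CPM in UC7-PBS (SD, n = 3 each), was the only 1 of the 4 without overlap.

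Rpl22l1, the paralog that can replace Rpl22, stood at 59.2, 65.6 and 58.1 CPM in IgG-PBS, 57.6, 44.2, 59.3 and 48.7 CPM in IgG-IFNa, 40.7, 62.3 and 50.7 CPM in UC7-PBS and 38.7, 69.0 and 42.5 CPM in UC7-IFNa. IFNa and PBS libraries overlapped after IgG and after UC7-13D5. Its log2 fold change with IFNa was -0.22 ± 0.20 after IgG and -0.34 ± 0.17 after UC7-13D5 without library 2 (SE, adjusted p = 0.79 and 0.45, edgeR). Rps27l, the p53-inducible paralog of Rps27, had 0.14 ± 0.21 and -0.081 ± 0.20, and Rpl36al, the autosomal paralog of Rpl36a, 0.065 ± 0.23 and -0.20 ± 0.16 (SE). Rpl7l1, a nucleolar relative of Rpl7, stood at 66.8, 64.3 and 79.0 CPM in IgG-PBS, 76.1, 77.5, 68.4 and 64.8 CPM in IgG-IFNa, 72.8, 61.5 and 68.7 CPM in UC7-PBS and 73.1, 76.8 and 72.8 CPM in UC7-IFNa. Its r to the mean of the others was -0.046 over 13 libraries and -0.52 without UC7-IFNa library 2. Rps19bp1, a binding partner of Rps19 and no ribosomal protein, stood at 14.8, 16.7 and 15.1 CPM in IgG-PBS, 14.4, 12.5, 20.3 and 18.3 CPM in IgG-IFNa, 11.9, 18.5 and 13.6 CPM in UC7-PBS and 14.0, 25.6 and 16.1 CPM in UC7-IFNa, with all groups overlapping. Rps23rg1 was between 0.137 and 0.987 CPM. Rps27rt, whose coding sequence is that of Rps27, had -0.13 ± 0.34 with IFNa after IgG and -0.49 ± 0.17 after UC7-13D5 without library 2, and the row of Rps27 0.0082 ± 0.26 and -0.15 ± 0.21 (SE). Rpl39l, a paralog best known from the testis, was between 0.0791 and 1.14 CPM, the highest in UC7-IFNa library 1, and passed the count filter only without UC7-IFNa library 2.

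Other genes of the translation machinery were read from lists. Rack1, a ribosomal protein outside the rule and the scaffold at the small subunit's head, stood at 406, 409 and 469.8 CPM in IgG-PBS, 348, 283, 456 and 373 CPM in IgG-IFNa, 371, 436 and 391 CPM in UC7-PBS and 291, 644 and 339.7 CPM in UC7-IFNa. Of 20 elongation and initiation genes with TOP mRNAs, 0 passed the threshold in either direction in any comparison. Their median log2 fold change with IFNa after IgG was -0.19, with 18 of 20 below 0, against 51.6% of all tested genes. After UC7-13D5 it was -0.10 with and -0.31 without UC7-IFNa library 2, the latter with 20 of 20 below 0, against 52.6% of all tested genes. Eef1a1, which brings aminoacyl-tRNA to the ribosome, stood at 3087, 3415 and 4644 CPM in IgG-PBS, 2871, 2769, 3515 and 3016 CPM in IgG-IFNa, 4124, 3387 and 3734 CPM in UC7-PBS and 2501, 3857 and 3006 CPM in UC7-IFNa. The 78 genes of the mitochondrial ribosome had 0 calls, and medians of -0.080 after IgG and, after UC7-13D5, 0.17 with and -0.11 without library 2.

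Of 46 ribosome biogenesis genes, 1 fell with IFNa after IgG and 0 rose. It was Myc, the transcription factor that drives ribosome production, at 152, 132 and 163 CPM in IgG-PBS, 76.4, 104, 56.7 and 61.9 CPM in IgG-IFNa, 110.2, 69.5 and 93.7 CPM in UC7-PBS and 48.2, 52.2 and 41.2 CPM in UC7-IFNa. Its log2 fold change was -0.99 ± 0.20 after IgG (SE, adjusted p = 0.031, edgeR). After UC7-13D5 it was -0.95 ± 0.22 (SE, adjusted p = 0.12, edgeR), and all 3 UC7-IFNa libraries lay under all 3 UC7-PBS libraries. Without UC7-IFNa library 2 it was -1.04 ± 0.24 after UC7-13D5 (SE, adjusted p = 0.065, edgeR). The call after IgG held in 16 of 28 alternative settings, with adjusted p from 0.00082 (DESeq2) to 0.50 (without IgG-IFNa libraries 3 and 4), and was lost on leaving out any 1 of the 3 IgG-PBS libraries, IgG-IFNa library 1, 3 or 4, or UC7-PBS library 3, and with a replicate block or the Y-linked share as a covariate, each with and without UC7-IFNa library 2. DESeq2 gave an adjusted p of 0.009 after UC7-13D5. The median of the list was -0.052 after IgG and 0.0014 after UC7-13D5. For UC7-13D5 against IgG with PBS it was -0.14 with 0 calls and 42 of 46 values below 0, while 48.3% of all tested genes lay above 0. Without UC7-IFNa library 2 the list's median with IFNa after UC7-13D5 was 0.078. There 31 of 46 values lay above 0, while 52.6% of all tested genes lay below 0. Ncl, nucleolin, stood at 328, 353 and 346 CPM in IgG-PBS, 372, 336, 364 and 415 CPM in IgG-IFNa, 346, 273 and 345 CPM in UC7-PBS and 331, 133 and 369 CPM in UC7-IFNa. Its lowest level was in UC7-IFNa library 2, as for 26.6% of all tested genes. The 23 mTORC1 and TOP mRNA regulators had 0 calls in all 5 comparisons and medians of 0.095 after IgG and 0.068 after UC7-13D5. Without UC7-IFNa library 2 the latter was 0.095. Among the 9 noncoding hosts of small nucleolar RNAs, Snhg5 had the smallest p after IgG, at 0.81 ± 0.21 (SE, adjusted p = 0.11, edgeR), and passed the threshold without UC7-IFNa library 2 at 0.81 ± 0.20 (SE, adjusted p = 0.038, edgeR). It was called in 3 of 28 alternative settings, with adjusted p from 0.014 (DESeq2) to 0.82 (without IgG-IFNa libraries 3 and 4), and not with a replicate block or the Y-linked share as a covariate, also when UC7-IFNa library 2 was left out. Of 18 genes of integrated stress and interferon translation control, 2 rose with IFNa after either antibody, Ifit3 and Ifit1, and 0 fell. Ifit1 rose by 1.86 ± 0.35 after IgG and 2.37 ± 0.38 after UC7-13D5 on the log2 scale (SE, adjusted p = 0.021 and 0.0064, edgeR). Without UC7-IFNa library 2 the rises after UC7-13D5 were 2.73 ± 0.26 for Ifit1 and 5.11 ± 0.30 for Ifit3 (SE). The calls of Ifit1 held in 20 and 25 of 28 alternative settings, and those of Ifit3 in all 28. The call of Ifit1 after IgG was lost without any 1 of the IgG-PBS libraries, without IgG-IFNa library 2 or 3 or libraries 3 and 4 together, and, over all 13 libraries, with a replicate block or the Y-linked share as a covariate. After UC7-13D5 it was lost without UC7-PBS library 1 or 3 and with only the 2 groups compared in the fit (adjusted p = 0.20, edgeR).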

How the data were processed

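The deposited count table held estimated counts per gene, not scaled between libraries, and the authors' second table a signal per gene, the same counts divided by a factor per library, which was used only to check which members it lists (88 of 90). Per the submitters' processing notes STAR 2.7.8a, Partek, DESeq2 and the build mm39 were used, without a step for each. Gene positions are those of the deposited table, in mm39.

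Estimated counts were rounded. The filter was filterByExpr of edgeR, applied by group with a minimum count of 10, and left 15835 genes and 89 of 90 members, all but Rpl39l. Libraries were scaled by TMM, and a quasi-likelihood model of the 4 groups was fitted to all 13 in 1 step (edgeR 4.0.16, R 4.3.3), with two-sided tests in 5 contrasts, Benjamini-Hochberg adjustment over all tested genes and a threshold of 0.05. The SE is the size of the log2 fold change over the square root of F. CPM are TMM-scaled, except the Xist and Y-linked values, which are per total counts, and lists of libraries are in replicate order. Copies were matched by BLAST 2.17.0 of GENCODE M21 pseudogene transcripts against the core members' mRNAs. Coding lengths come from the same release, on GRCm38. The code was tested on simulated counts.

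The members and lists were chosen with earlier results of these data known. Named members are a fixed set, the 3 with the smallest p per contrast where fewer than 3 passed, the 5 highest and lowest by level per coding length and the 5 most and least like the others, and from each list up to 2 genes per contrast by p. Rpl3l and Rpl10l of that set were not analysed here, and a few genes the rules name are not reported here. Rpl8, Rpl15, Rps15a, Rps18, Rps18-ps5, the families by level, those whose groups did not overlap and those shown for their copies were named after their values were seen, as were Rack1, Eef1a1 and Ncl. Alternatives were DESeq2 1.42.0, other scalings and filters, a replicate block, the Y-linked share as a covariate, pseudogene rows added, and each library left out.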

Additional observations from a re-analysis of the deposited data

Results flagged for a closer look

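In the group of 4 IgG-IFNa libraries, 1 named member had a library far from the other 3 by Dixon's criterion. Rplp0 stood at 810.3 CPM in IgG-IFNa library 3 and at 642 to 655 CPM in the others. Library 3 also had the highest summed member share of that group, 1.69%. About 1 in 20 groups would be singled out by chance, and 41 values were examined.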

How the results depend on the processing

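The count of called members was 0 in all 5 comparisons under each of the 28 alternative settings run, those chosen after seeing the data included. Leaving out UC7-IFNa library 2 moved the members' median log2 fold change to -0.38 for IFNa after UC7-13D5, -0.25 for UC7-13D5 with IFNa and -0.28 for the interaction. Leaving it out and adding copies matched by sequence gave -0.42, -0.25 and -0.30, and leaving it out with a replicate block -0.40, -0.27 and -0.33. With the Y-linked share as a covariate and that library left out, they were -0.38, -0.36 and -0.17. The cause was not tested. These 3 combinations were chosen after seeing the data. With 1 library left out at a time, the medians ran from -0.21 to -0.013 for IFNa after IgG, -0.38 to 0.36 for IFNa after UC7-13D5, -0.026 to 0.11 for UC7-13D5 with PBS, -0.25 to 0.50 for UC7-13D5 with IFNa and -0.28 to 0.44 for the interaction. Under the other settings they ran from -0.26 to 0.044, 0.0014 to 0.13, 0.035 to 0.35, 0.18 to 0.44 and 0.0049 to 0.36. The mean share of counts, for IgG-PBS and IgG-IFNa and then UC7-PBS and UC7-IFNa, was 2.17, 1.88 and 2.18% in the first 3 with pseudogene rows named for a member, 2.66, 2.33, 2.69 and 2.64% with rows matched by sequence, and 0.811, 0.703, 0.811 and 0.789% without members that have a named pseudogene row, as the rows counted fix.

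Libraries of different groups with the same replicate number did not deviate together: 2 of 18 such pairs correlated above 0.1, and 1 of 12 libraries correlated best with one of its own number. With the replicate number as a block the medians were -0.074, 0.082, 0.048, 0.20 and 0.14 in the order of the comparisons above, with 0 members called, while all called genes went from 131 to 27 for IFNa after IgG. Among all tested genes, higher and lower calls for IFNa after IgG, IFNa after UC7-13D5, UC7-13D5 with PBS and UC7-13D5 with IFNa were 98 and 33, 53 and 4, 0 and 1, 6 and 6 as reported, 294 and 114, 107 and 31, 46 and 18, 92 and 26 with DESeq2 and 298 and 132, 95 and 15, 0 and 1, 0 and 2 without UC7-IFNa library 2. The 195 log2 fold changes of named members gave 5394 alternative values, of which 455 moved by more than 1 SE, 398 of them where UC7-IFNa library 2 was left out. Rows with few counts, such as Rpl39l and Rps23rg1, are limited by depth, and members with copies by the split of reads between rows.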
